A study of Rattus norvegicus and Mus musculus with 9 samples.

Results

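Signals of Tcl1a and 7 genes of the phosphoinositide 3-kinase (PI3K) and AKT pathway, Akt1, Akt2, Pik3ca, Pik3cb, Pik3r1, Pik3r3 and Inpp5d, were read from microarrays of rat embryonic stem (ES) cells, mouse ES cells and rat embryonic fibroblasts. The genes were chosen by symbol, with the difference between rat ES cells and rat fibroblasts already known, and mouse Tcl1 was taken as the counterpart of rat Tcl1a. Of these 8 genes, 7 were measured among 14506 named genes of the rat table (Pik3ca was not analysed there), and 8 among 19938 named genes of the mouse table. Each of the 7 had 1 rat probe set, so the rule of keeping the probe set with the highest mean selected nothing in the rat table.

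The study has 3 arrays of rat ES cells, 3 of mouse ES cells and 3 of rat embryonic fibroblasts, each hybridized with biotin-labelled single-stranded DNA made from total RNA. The rat ES cells, of strain DA, grew in 3I medium, as media are called in which inhibitors block signalling through the FGF receptor, MEK and GSK3. Mouse ES cells came from strain C57/BL6 and grew in GMEM with fetal bovine serum and LIF, and feeder cells were taken out before RNA extraction. The rat fibroblasts, also of strain DA, grew in GMEM with fetal bovine serum. The labels do not mention feeder cells for the rat ES cultures, and they do not say whether arrays within a group stem from separate cultures. The p-values therefore cover the spread between arrays, which could be technical. Medium differed along with cell type, and their parts in any difference between the rat groups cannot be told apart.

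The cell labels were checked against marker genes, where calls needed a limma adjusted p under 0.05 (Benjamini-Hochberg, over all genes) together with a difference of at least 2-fold. In rat ES cells, all 9 measured pluripotent cell markers were called higher than in rat fibroblasts, with a median log2 difference of 5.48, and all 10 fibroblast markers were called lower, with a median of -4.77. The mean signal over the 10 fibroblast markers was 7.01, 7.29 and 7.50 (log2) on rat ES arrays 1, 2 and 3, against 12.03, 12.02 and 12.04 on the fibroblast arrays. The rat ES arrays thus spanned 0.483 in these markers, lowest on array 1 and highest on array 3. Median signals were 5.71 to 5.74 on the 6 rat arrays and 4.75 to 4.77 on the 3 mouse arrays. These medians are over all probe sets, many of which had no symbol, so they do not mark the middle of the named genes. Precision is limited by the small number of arrays throughout.

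In this pathway, activated growth factor receptors recruit class I PI3K, made of a catalytic and a regulatory subunit, to the membrane, where it converts the lipid PIP2 into PIP3. PIP3 draws the kinase AKT to the membrane to be activated by PDK1 and the mTOR-containing complex mTORC2, and active AKT restrains FOXO transcription factors and the TSC complex and thereby promotes growth and survival. TCL1 is a small protein that binds AKT and enhances its activation. It is best known as a lymphoid oncogene, and in mouse ES cells Tcl1 is a target of Oct4 that promotes proliferation.

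Tcl1a showed the largest difference of the 7 genes measured in the rat table, with a nearly uniform signal in rat ES cells and a low one in fibroblasts. Its signal was 10.65, 10.68 and 10.66 (log2) in rat ES cells, against 4.18, 3.83 and 3.80 in rat fibroblasts. The groups lay far apart, and all 3 fibroblast values were below the array medians. The difference was 6.72 on the log2 scale (SE 0.10, n = 3 per group), or 106-fold. Since the fibroblast signal was not separated from background here, the size of this fold is uncertain. The SD was 0.012 among the rat ES arrays, smaller than for all but 1.40% of genes, and 0.210 among the fibroblast arrays, where the median SD of all genes was 0.0908. This difference, like those of the other 6 genes, was in view when the genes were chosen and is given as a description with no test. In such bulk samples, a lower share of expressing cells and less RNA per cell cannot be told apart.

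The promoter of Tcl1a is shown with those of Inpp5d, the other large difference upwards, and Pik3r1, which did not separate the rat groups. RefSeq sequences for assembly GRCr8 were held for 6 of the 7 genes, and for these 3 the window, from 250 bases before to 50 bases after a start, was placed on the gene's outermost annotated start. Capitals mark matches, on either strand, to the 6 motifs searched: TATAAA (the core element bound by TBP), CCGCCC (the GC box of Sp and KLF factors), ATGCAAAT (the octamer of Oct factors), TCAAGGTCA (Esrrb), TGTTTAC (FOXO) and AGGAAGT (ETS factors). The Tcl1a window is chr6:129895707-129896006 on the minus strand, the Inpp5d window is chr9:95735283-95735582 on the plus strand, and the Pik3r1 window is chr2:34697611-34697910 on the minus strand.
Tcl1a: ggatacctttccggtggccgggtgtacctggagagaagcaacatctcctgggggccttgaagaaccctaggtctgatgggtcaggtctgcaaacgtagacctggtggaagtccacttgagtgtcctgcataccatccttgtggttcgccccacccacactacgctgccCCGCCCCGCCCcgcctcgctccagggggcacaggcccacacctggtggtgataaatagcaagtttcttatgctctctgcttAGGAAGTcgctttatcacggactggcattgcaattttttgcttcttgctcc
Inpp5d: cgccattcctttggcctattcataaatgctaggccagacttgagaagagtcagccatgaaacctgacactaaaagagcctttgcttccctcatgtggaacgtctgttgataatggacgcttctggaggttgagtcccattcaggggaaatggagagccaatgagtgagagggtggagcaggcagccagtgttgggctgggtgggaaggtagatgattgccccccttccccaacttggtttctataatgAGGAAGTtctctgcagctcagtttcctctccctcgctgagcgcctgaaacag
Pik3r1: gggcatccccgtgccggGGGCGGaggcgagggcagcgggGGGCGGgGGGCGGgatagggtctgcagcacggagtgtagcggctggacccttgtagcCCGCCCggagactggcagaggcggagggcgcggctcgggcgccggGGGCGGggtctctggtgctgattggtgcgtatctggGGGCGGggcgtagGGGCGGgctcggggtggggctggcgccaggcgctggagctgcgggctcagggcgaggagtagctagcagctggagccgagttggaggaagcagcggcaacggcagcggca

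The 3 windows differed in base composition. G and C made up 56.7% of the Tcl1a window, 51.7% of the Inpp5d window and 75.3% of the Pik3r1 window, against a median of 51.7% over 33469 rat promoter windows. The Pik3r1 window held 31 CpG dinucleotides, the Tcl1a window 11 and the Inpp5d window 5, where the median was 7. The GC box, present in 33.1% of all windows, matched 7 times in the Pik3r1 window and as a pair of sites that share 1 base in the Tcl1a window, starting at -82 and -77 relative to the start, and it had no match in the Inpp5d window. The ETS letters, present in 8.41% of windows, matched once in Tcl1a, from -1, and once in Inpp5d, from -2, so that they span the annotated start of both genes. On the gene's own strand, 9 of the 33469 windows (0.0269%) hold these letters from -2 or -1, a position that was looked at only after the matches were seen. None of the 3 windows held the TBP, octamer, Esrrb or FOXO letters, which are present in 14.2%, 1.78%, 0.433% and 3.78% of all windows. A match is a description of letters and not a binding site.

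**Figure D1:**
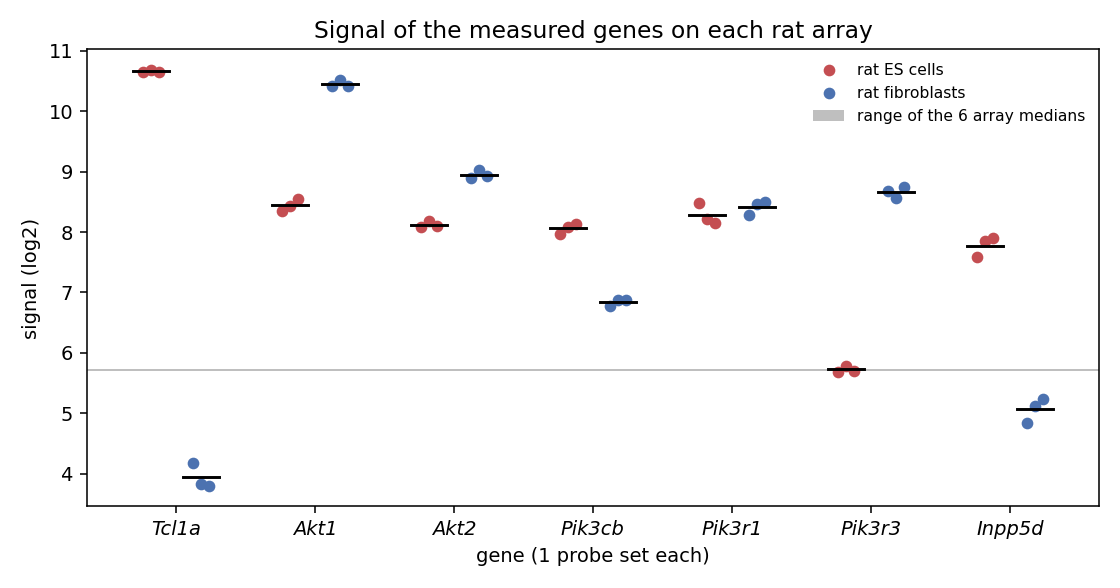
Signal (log2, vertical axis) of the 7 genes measured in rat, with 1 point per array for rat ES cells (left of each pair) and rat fibroblasts (right), black bars for group means and a grey band for the range of array medians. Pik3r1 is the one gene whose groups overlap, Tcl1a and Inpp5d lie below the band in fibroblasts, and Pik3r3 lies on it in rat ES cells.

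Both AKT kinase genes had lower signals in rat ES cells than in rat fibroblasts, and Akt1 differed more than Akt2. Akt1, the broadly expressed isoform tied mainly to growth and survival, had 8.35, 8.42 and 8.55 (log2) in rat ES cells, against 10.41, 10.51 and 10.41 in fibroblasts. The groups did not overlap, and the difference was -2.00 (SE 0.08, n = 3 per group), a 4.00-fold lower signal. The highest rat ES value was on array 3, where the fibroblast markers were also highest, and the lowest on array 1, where they were lowest; their part in the result was not tested. Without rat ES array 3 the difference was -2.06.

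Akt2, the isoform most closely tied to insulin action on glucose uptake, had 8.08, 8.18 and 8.10 in rat ES cells, against 8.89, 9.02 and 8.93 in fibroblasts. These groups did not overlap either, but the difference was -0.83 (SE 0.07), less than 2-fold. The within-array difference between Akt1 and Akt2 was therefore lower by 1.17 in rat ES cells than in fibroblasts, with SDs of 0.114 and 0.022 among the arrays. This value shows that the 2 kinase genes differed unequally and sets no level of one against the other.

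Among the PI3K subunit genes, the catalytic subunit gene Pik3cb was higher in rat ES cells, the regulatory subunit gene Pik3r3 was lower, and Pik3r1 overlapped. Pik3cb encodes p110beta, a widely expressed catalytic subunit that also answers to G protein-coupled receptors. Its signal was 7.97, 8.08 and 8.13 (log2) in rat ES cells, against 6.78, 6.88 and 6.87 in fibroblasts. The groups did not overlap, and the difference was 1.21 (SE 0.07), or 2.32-fold.

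Pik3r3 encodes p55gamma, a regulatory subunit that lacks the amino-terminal part of p85. It had 5.68, 5.79 and 5.71 in rat ES cells, against 8.68, 8.56 and 8.75 in fibroblasts. The groups lay far apart, with the rat ES values at the level of the array medians, and the difference was -2.94 (SE 0.08), or 7.66-fold. Only 306 of the 14506 genes had a lower log2 difference.

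Pik3r1, which encodes p85alpha, the main regulatory subunit of most cells, had 8.48, 8.21 and 8.15 in rat ES cells, against 8.29, 8.46 and 8.49 in fibroblasts. Rat ES array 1 lay among the fibroblast values and fibroblast array 1 among the rat ES values. The difference was -0.13 (SE 0.10), but -0.23 without rat ES array 1, -0.06 without rat ES array 3 and -0.26 after quantile normalization. The overlap rested on rat ES array 1, since the other 2 rat ES values lay below all 3 fibroblast values. The SD of 0.176 among the rat ES arrays was larger than for 81.1% of genes. The within-array difference between Pik3r3 and Pik3r1 was lower by 2.81 in rat ES cells, with SDs of 0.212 among rat ES arrays and 0.149 among fibroblast arrays.

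Inpp5d encodes SHIP1, a phosphatase that removes a phosphate from PIP3 and is best known in blood cells, and a shorter form of it is known from mouse ES cells. Its signal was 7.58, 7.85 and 7.90 (log2) in rat ES cells, against 4.84, 5.12 and 5.24 in fibroblasts. The groups did not overlap, all fibroblast values lay below the array medians, and the difference was 2.71 (SE 0.13), or 6.53-fold, a size that is uncertain for that reason. Only 169 genes had a higher log2 difference. Inpp5d and Pik3cb, like Akt1, were lowest on rat ES array 1 and highest on array 3, in the order of the fibroblast markers. Both were higher in rat ES cells than in fibroblasts, and the part of those markers in this order was not tested. Without rat ES array 3 the differences of Inpp5d and Pik3cb were 2.65 and 1.18.

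Since Inpp5d and Tcl1a are both known from blood cells, blood markers were read beside them. Of 12 blood and macrophage markers, 3 passed as higher in rat ES cells and none passed as lower. These were Laptm5, a lysosomal membrane protein gene (8.34 ± 0.24 in rat ES cells, 4.48 ± 0.24 in fibroblasts, SD, n = 3 each; limma adjusted p = 1.18e-07), the erythroid transcription factor gene Gata1 (8.10 ± 0.27 and 5.03 ± 0.33; limma adjusted p = 1.28e-06) and the actin-bundling gene Lcp1 (7.87 ± 0.13 and 5.24 ± 0.20; limma adjusted p = 2.29e-07). The other 9, among them Ptprc and Spi1, which define blood and myeloid cells, had means of 3.83 to 5.39 in rat ES cells and 3.80 to 5.43 in fibroblasts, all below the array medians. One of these 9, the lysosomal glycoprotein gene Cd68, had a log2 difference of 0.57 at less than 2-fold (limma adjusted p = 0.00134). None of 7 lymphocyte markers was called, where 1, Lck, had an adjusted p under 0.05 at less than 2-fold. The mean signal over the 12 blood markers was 5.27 to 5.39 on the rat ES arrays and 4.38 to 4.55 on the fibroblast arrays, and over the 7 lymphocyte markers 4.34 to 4.41 and 4.32 to 4.43.

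The genes with the most similar levels were found by Euclidean distance over the 6 rat arrays. Closest to Tcl1a were Ifitm1 (distance 0.501), Akr7a3 (0.710), Pou5f1 (1.11), Nanog (1.36) and Tdh (1.55). Closest to Inpp5d were Pls1 (0.316), Psd4 (0.381), Susd4 (0.586), Lcp1 (0.614) and Odad4 (0.624), so that 1 of these 5 is also on the blood marker list. The arrays form 2 groups, and the distance mostly reads the level in each.

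**Figure D2:**
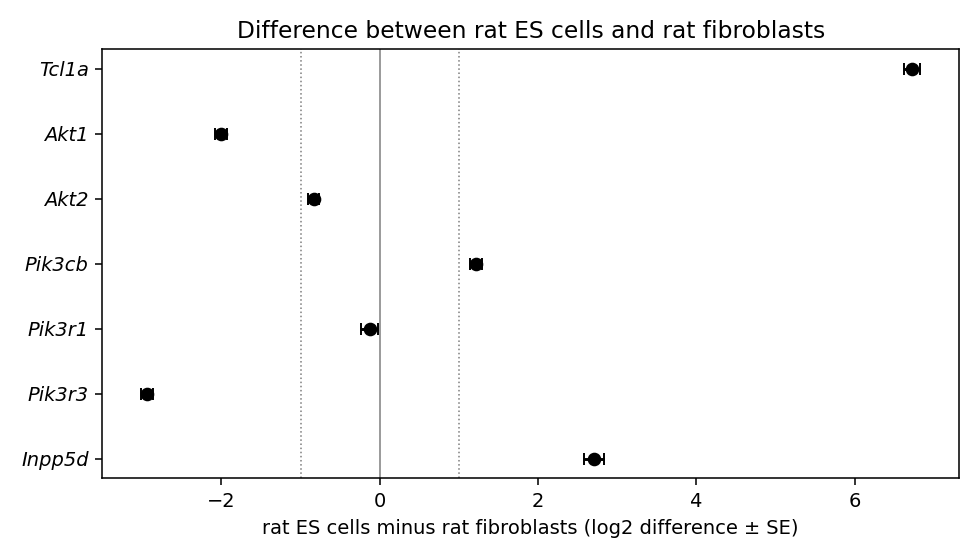
Log2 difference between rat ES cells and rat fibroblasts (horizontal axis, rat ES minus fibroblasts) with its SE for the 7 genes, and dotted lines at a 2-fold difference. Tcl1a (6.72), Inpp5d (2.71) and Pik3cb (1.21) lie beyond the upper line, Akt1 (-2.00) and Pik3r3 (-2.94) beyond the lower one, and Akt2 (-0.83) and Pik3r1 (-0.13) between them.

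By the same rule for calls, 3 of the 7 genes were higher in rat ES cells and 2 lower. Over all 14506 genes 20.7% were called, 10.6% higher and 10.1% lower. The groups did not overlap in 6 of the 7 genes and in 61.5% of all genes. Nothing is read from these shares, because the genes were chosen with this contrast in view. Every one of the 2996 genes that differed by at least 2-fold also passed the adjusted p, so the fold threshold alone decided the calls.

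The wider pathway was then read in 9 lists of genes by role, in which 86 of 104 listed genes were measured. These lists were also picked with earlier results of these data known. Their shares and p-values are therefore given as a description and are no independent support. In rat ES cells, 10 of these 86 genes rose and 16 fell. The called share was 30.2%, against 20.7% over all genes, and the median log2 difference was -0.01, against -0.000688 over all genes. The median size of the difference was 0.65, against 0.32 over all genes. Both gaps were smaller among genes of higher mean signal, where only the gap in median size kept its direction. The part of signal level in them was not tested. In the upper part of the genes, split at the median gene by mean signal, 22 of 70 pathway genes (31.4%) passed, against 31.8% of 7253 genes, and the median sizes were 0.72 and 0.64.

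Upstream of PI3K, 1 of 11 measured receptor, adaptor and Ras genes rose and 3 fell. Gab1, an adaptor that docks PI3K to receptors, rose by 1.53 (9.82 ± 0.07 in rat ES cells, 8.29 ± 0.03 in fibroblasts, log2, SD, n = 3 each; limma adjusted p = 2.13e-07). Rras, a Ras-related GTPase gene, fell by 1.54 (limma adjusted p = 3.88e-07), and Irs1, the insulin receptor substrate, fell by 1.21 (limma adjusted p = 9.94e-06). The insulin receptor gene Insr was the remaining decrease, at -1.12, and is named here because the count is small.

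Among 5 other class I PI3K genes, 1 was called, Pik3ip1, an inhibitor of the catalytic subunit, at -1.01 (5.95 ± 0.11 in rat ES cells, 6.96 ± 0.09 in fibroblasts; limma adjusted p = 1.06e-05). It lay at the fold threshold and was at -0.96 without rat ES array 1, -0.97 without fibroblast array 1 and -0.995 without fibroblast array 3, each under 2-fold. Of 5 class II and class III PI3K genes, Pik3c3, the kinase of autophagy and endosome sorting known as VPS34, rose by 1.32 (limma adjusted p = 6.21e-07). Pik3c2a, a class II kinase of endocytosis, fell by 1.84 (7.33 ± 0.03 and 9.17 ± 0.05; limma adjusted p = 6.39e-08).

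Of 14 phosphoinositide and AKT phosphatase genes, 3 fell and none rose, and the median difference was -0.17. Inppl1, which encodes SHIP2, the broadly expressed relative of the Inpp5d product, read 6.30 ± 0.04 in rat ES cells and 8.39 ± 0.001 in fibroblasts, and fell by 2.09 (limma adjusted p = 2.88e-08). The signals of the 2 SHIP genes thus differed in opposite directions between the groups, 2.71 for Inpp5d and -2.09 for Inppl1. Synj2, a synaptojanin gene, fell by 2.14 (limma adjusted p = 7.85e-08) to a rat ES signal of 4.97, below the array medians. Inpp4b, named for the small count, was at -1.51.

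Of 5 measured genes for PDK1 and the mTOR complexes, 2 rose and none fell. Pdpk1, which encodes PDK1, the kinase that activates AKT, was at 9.29 ± 0.07 in rat ES cells and 8.13 ± 0.05 in fibroblasts and rose by 1.16 (limma adjusted p = 1.23e-06). Mtor rose by 1.05 (limma adjusted p = 1.11e-06), and was at 0.95, under 2-fold, after quantile normalization. Of 6 AKT-binding regulators, Trib2, a pseudokinase gene, fell by 2.17 (limma adjusted p = 2.77e-07), and Plekho1, a membrane-docking protein gene, fell by 1.97 (limma adjusted p = 1.88e-07). The other 4, Aktip, Them4, Trib1 and Trib3, passed the adjusted p at differences of 0.44 to 0.94.

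Downstream, 2 of 13 TSC, mTORC1 and S6 kinase genes rose and none fell. Tsc2, the GTPase-activating subunit that holds mTORC1 in check, rose by 1.18 (9.59 ± 0.01 in rat ES cells, 8.41 ± 0.04 in fibroblasts; limma adjusted p = 5.99e-07). Eif4ebp2, a repressor of cap-dependent translation that mTORC1 inactivates, rose by 1.76 (limma adjusted p = 8.14e-08). Of 11 AKT substrate genes, 3 rose and none fell. Acly, which makes acetyl-CoA from citrate, rose by 1.39 (limma adjusted p = 4.27e-07), the transcription factor gene Foxo1 rose by 1.13 (limma adjusted p = 2.69e-06), and Pfkfb2 was at 1.03.

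Of 16 genes listed as FOXO targets, 1 rose and 6 fell, with a median difference of -0.12. Cited2, a transcriptional coregulator gene, was at 7.72 ± 0.08 in rat ES cells and 9.84 ± 0.02 in fibroblasts and fell by 2.12 (limma adjusted p = 4.49e-08). The stress response gene Gadd45a fell by 1.92 (limma adjusted p = 8.66e-07). Klf2, which is also a naive pluripotency factor, rose by 2.76 (10.57 ± 0.02 and 7.80 ± 0.06; limma adjusted p = 9.65e-09). Many of these genes answer to other factors as well, so the list is no measure of FOXO activity, which was not tested.

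**Figure D3:**
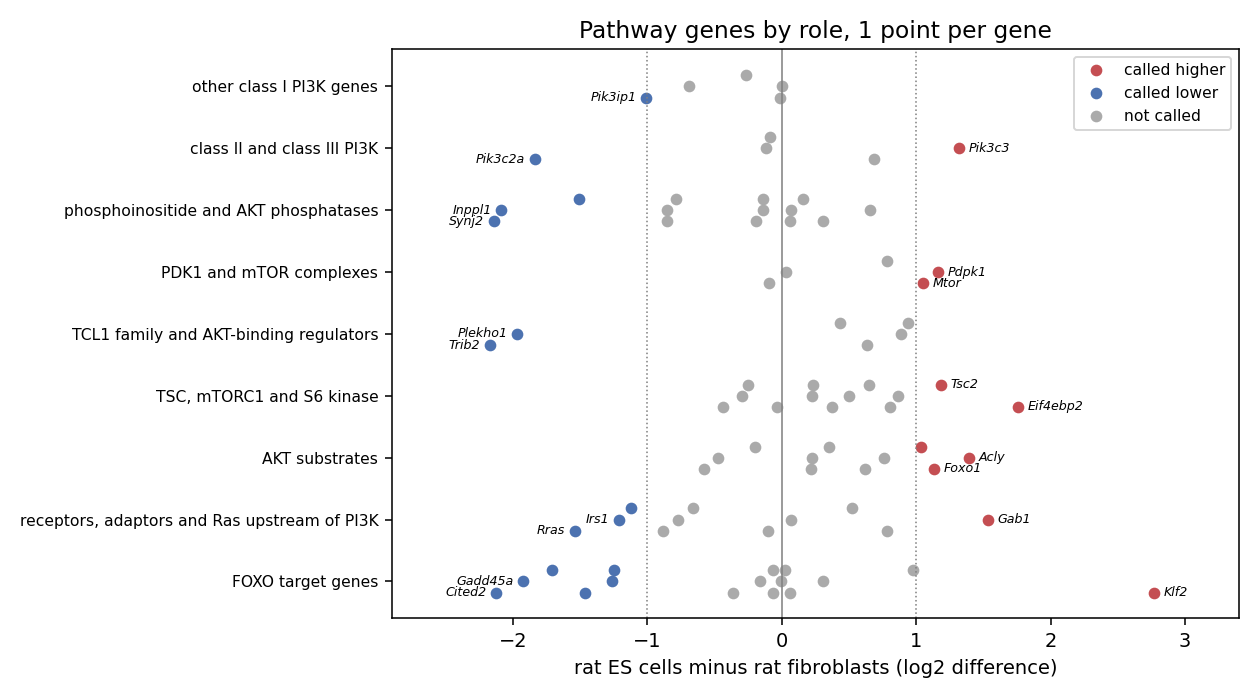
Log2 difference between rat ES cells and rat fibroblasts (horizontal axis, rat ES minus fibroblasts) for the 86 pathway genes outside the chosen ones, in 9 rows by role, with 1 point per gene and dotted lines at a 2-fold difference. The 10 genes called higher (red) include Klf2 at 2.76 and Eif4ebp2 at 1.76, the 16 called lower (blue) include Trib2 at -2.17 and Synj2 at -2.14, and points are shifted vertically only to keep them apart.

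Rat and mouse ES cells were measured on different platforms and normalized separately, so genes were set side by side only as percentiles of signal within each array, among 12115 symbols of both tables. A percentile also carries how well each platform's probe set responds, and species, strain and medium differed together, so their parts cannot be told apart. The mouse arrays shared 16691 to 20845 identical values of 35557 by pairs, and all 3 agreed exactly in 15447 probe sets. No SD over the mouse arrays is given for that reason. For the rat and mouse ES ranks, no share of non-overlapping genes and no typical gap over all shared symbols is given. Neither a lack of overlap nor the size of a gap is therefore read as particular to these genes.

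Tcl1a stood higher in rank in rat ES cells than Tcl1 in mouse ES cells. It lay at percentiles 97.5, 97.5 and 97.6 on the rat ES arrays, 69.0, 70.3 and 69.5 on the mouse ES arrays, and 10.1, 6.76 and 5.99 on the rat fibroblast arrays. The 3 groups did not overlap, and mean rat ES and mouse ES percentiles differed by 27.9 points. The log2 signal of mouse Tcl1 was 6.98, 6.98 and 7.03, above the mouse array medians. The 5 mouse genes Tcl1b1 to Tcl1b5, further members of the TCL1 family, had signals of 2.55 to 4.65, below those medians on all 3 arrays.

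Inpp5d had percentiles of 64.8, 68.8 and 69.3 on the rat ES arrays, 70.4, 71.3 and 69.7 on the mouse ES arrays, and 19.4, 25.1 and 26.0 on the rat fibroblast arrays. Every rat ES array lay below every mouse ES array, and both groups lay above the fibroblasts. The means of rat and mouse ES cells differed by -2.83 points, by -1.42 points without rat ES array 1 and by -6.56 points among all named genes of each table.

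The AKT genes ranked lower in rat ES cells than in mouse ES cells. Akt1 had percentiles of 77.8, 78.5 and 80.3 in rat ES cells, 84.7, 85.9 and 84.5 in mouse ES cells, and 96.6, 96.8 and 96.7 in rat fibroblasts. The groups did not overlap, and mouse ES cells stood between both rat groups. Akt2 had 73.4, 74.5 and 73.2 in rat ES cells, 92.3, 92.6 and 92.0 in mouse ES cells, and 85.8, 86.8 and 86.4 in rat fibroblasts. Mouse ES cells were thus highest with the mouse probe set kept. Mouse Akt2 is the one gene with a second probe set, which read 8.12 (log2) on all 3 arrays, against 8.81 to 8.86 for the one kept. With both averaged, the difference between rat and mouse ES cells was -15.5 points, against -18.6 points. The percentile of the second probe set alone was not read, but its signal was close to that of mouse Akt1, 8.06 at percentiles 84.5 to 85.9. With that probe set, mouse ES cells may not rank above rat fibroblasts in Akt2.

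Among the PI3K subunits, Pik3cb and the regulatory genes ranked in opposite directions between rat and mouse ES cells. Pik3cb had percentiles of 71.4, 72.7 and 73.7 in rat ES cells, 91.0, 90.2 and 90.8 in mouse ES cells, and 51.3, 52.9 and 52.8 in rat fibroblasts. Both kinds of ES cells lay above the fibroblasts, mouse ES cells by more. Pik3r1 had 79.7, 75.3 and 74.2 in rat ES cells, 41.9, 38.6 and 42.0 in mouse ES cells, and 77.8, 80.1 and 81.2 in rat fibroblasts. The rat groups overlapped, and the mouse arrays lay 35.5 points below rat ES cells on average, the largest gap of the 7 genes in either direction.

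Pik3r3 had percentiles of 35.5, 37.4 and 35.4 in rat ES cells, 19.9, 19.4 and 20.1 in mouse ES cells, and 83.4, 81.3 and 84.3 in rat fibroblasts. Both kinds of ES cells lay below the fibroblasts, mouse ES cells by more. Pik3ca, which encodes the catalytic subunit p110alpha, was read in mouse only, with signals of 6.54, 6.53 and 6.54 (log2) at percentiles 70.0, 70.6 and 69.9 among all named mouse genes. Eras, a Ras gene of mouse ES cells that activates PI3K, read 5.40 on all 3 mouse arrays, above the medians over all probe sets. That is close to mouse Pik3r1, which read 5.39, 5.24 and 5.39 at percentiles 41.9, 38.6 and 42.0 among shared symbols. The Eras signal was therefore not high among named genes.

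**Figure D4:**
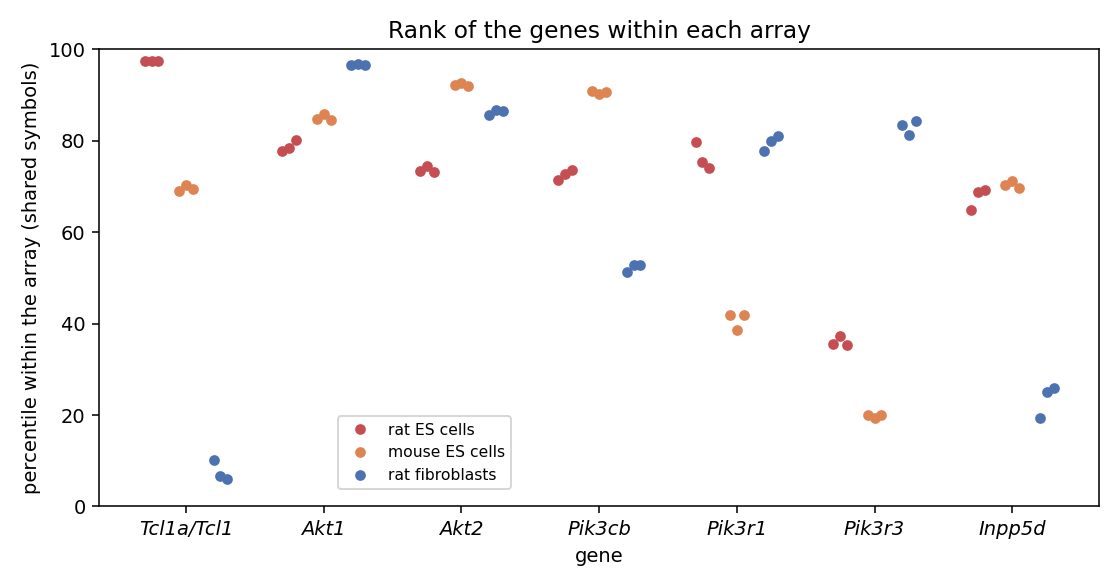
Percentile of signal within each array (vertical axis, among symbols of both tables) for the 7 genes of both tables, with 1 point per array for rat ES cells (left), mouse ES cells (middle) and rat fibroblasts (right). Tcl1a lies near 97.5 in rat ES cells, 69.6 in mouse ES cells and 7.60 in fibroblasts on average, while Pik3r1 is lowest in mouse ES cells at 40.8.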

How the data were processed

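Biotin-labelled single-stranded DNA made from total RNA was hybridized to microarrays, per the labels' protocols. The 2 deposited tables hold log2 values, 1 row per probe set, for 6 rat and 3 mouse arrays. That the scale is log2 was read from the range of the values. The authors' background correction, normalization, probe summary and genome build were not given in the sources used here. Probe sets were named through the platform annotation supplied, which can be old. Of 29215 rat and 35557 mouse probe sets, 15310 and 21789 had 1 symbol and were used, 323 and 1621 had several, and 13582 and 12147 had none listed. RefSeq (GRCr8) gene IDs matched 15279 named rat probe sets. The probe set with the highest mean was kept per symbol. The rat groups were fitted in R 4.3.3 by limma 3.58.1 (lmFit and eBayes with group as the only term) on all 14506 genes, with Benjamini-Hochberg adjustment and no filter on level. The fit was tested on simulated data.

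The chosen genes and lists were picked with earlier results of these data known. Named are the 8 chosen genes, the 2 largest called differences per list and direction, the 5 nearest genes to Tcl1a and to Inpp5d, and called markers. Inpp4b, Insr, Pfkfb2, Lck, Cd68 and the uncalled AKT-binding regulators were named after their values were seen, as were the mouse genes Tcl1b1 to Tcl1b5 and Eras. The promoter motifs were chosen with the sequences at hand. Deviations of arrays with the same replicate number correlated at -0.00044, 0.031 and -0.000296, and replicate numbers were not used for pairing. Alternatives were quantile normalization, median centring, filters on level, the mean of probe sets, other thresholds, trended and robust eBayes, the replicate block, ranks among all named genes of a table, and each array left out in turn.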

Additional observations from a re-analysis of the deposited data

How the results depend on the processing

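The calls rested on the fold threshold. With no fold threshold, 8172 of all genes passed the adjusted p, 4478 higher and 3694 lower in rat ES cells, and 63 of the 86 pathway genes, 34 higher and 29 lower. Under every other alternative run, counts stayed within 1.5 times: leaving out each array gave 2994 to 3035 calls over all genes (1546 to 1570 higher, 1428 to 1486 lower) and 24 to 27 among pathway genes (9 to 11 higher, 15 to 16 lower). The replicate number as a block gave 2996 calls over all genes and 26 among pathway genes, 10 higher and 16 lower, and 0 calls differed. In all settings run for them, 3 of the 7 genes were at least 2-fold higher and 2 at least 2-fold lower, and 3 of 7 ranked higher in rat than in mouse ES cells. Nothing is read from the count of ranks, since no share over all genes is given beside it. Quantile normalization moved Akt2 to -0.94 and Pik3cb to 1.11. Among all named genes of each table, the rat minus mouse ES percentile was 20.7 for Tcl1a, 27.1 for Pik3r1, 12.2 for Pik3r3, -8.11 for Akt1 and -6.56 for Inpp5d. Other probe sets of the 7 genes could not be tried in rat, where each has 1. The filters on level, set at the 25th percentile or at the median gene by mean signal, tested 10879 and 7253 genes and gave 2946 calls (27.1%) and 2308 calls (31.8%), with 25 of 81 (30.9%) and 22 of 70 (31.4%) among pathway genes. The fibroblast signals of Tcl1a and Inpp5d lay below the array medians, so their folds are uncertain.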
